A study of Homo sapiens with 6 samples.

Results

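Clusterin is a secreted glycoprotein that binds misfolded proteins and lipids outside cells, and several of its receptors belong to the low-density lipoprotein (LDL) receptor family. The 7 genes described here are CLU, which encodes clusterin, 5 receptors of that family (LRP1, LRP2, LRP5, LRP6 and LRP8) and SORL1, a sorting receptor that carries LDL-receptor repeats beside a VPS10 domain. They were chosen by symbol with the difference between GSK-A1 and DMSO libraries already known, so their changes are given as a description, without p-values. Each symbol matched 1 row, giving 7 of the 63140 genes in the deposited table, and all 7 passed the filter on low counts that left 16754 genes to test.

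The libraries came from HEK293, an established line derived from human embryonic kidney, grown with fetal bovine serum. In the treated group confluent cells received 100 nM GSK-A1, an inhibitor of the lipid kinase phosphatidylinositol 4-kinase IIIalpha (PI4KA), for 24 h. The control group is labelled DMSO, the solvent. Each group had 3 libraries, labelled as biological replicates 1 to 3. Labels name no genetic change in either group, and they do not say whether replicates were separate cultures, so p-values measure the spread between these libraries.

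Receptors of the LDL-receptor family are single-pass membrane proteins that bind ligands through cysteine-rich repeats, carry them into endosomes and return to the surface. LRP1 and LRP2 (megalin) are very large endocytic receptors with many ligands, and megalin is best known in the kidney proximal tubule, where it retrieves filtered proteins. LRP8, also called ApoER2, binds reelin and clusterin and signals through the adaptor DAB1. LRP5 and LRP6 act with Frizzled proteins as Wnt coreceptors. SORL1 moves cargo, including the amyloid precursor protein, between endosomes and the Golgi.

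Total counts per library ranged from 33040178 to 47777233. Pearson correlations of log2 CPM across tested genes were 0.9966 to 0.9971 between DMSO libraries and 0.9969 between GSK-A1 replicates 1 and 3. GSK-A1 replicate 2 stood apart, at 0.9951 and 0.9942 with the other GSK-A1 libraries, and values without it are given where a call, a direction or a value moved by over 1.5 times. All libraries carried the same batch label. Of 10 genes listed as HEK293 markers, 8 had a mean of at least 1 CPM (counts per 1000000 of a library total adjusted for composition), and NEFM and NEFH did not. Their summed level was 2074 to 2146 CPM with DMSO and 2221 to 2416 CPM with GSK-A1. VIM (1085 and 1217 CPM) and NEFL (715 and 741 CPM) held most of that sum. At an edgeR adjusted p under 0.05, 3 of the 8 tested were higher and 1 was lower, beside 12.0% and 10.9% of all tested genes. Of 7 proximal tubule markers, SLC34A1, SLC22A6 and SLC22A8 had no count in any library. The summed level of the 7 was 1.599 to 2.15 CPM with DMSO and 2.17 to 2.53 CPM with GSK-A1, while 6 fibroblast markers summed to 18.8 to 20.7 CPM with DMSO and 12.5 to 14.5 CPM with GSK-A1. Of those 6, COL1A2 had no count, and COL3A1 went from 9.69 to 5.50 CPM. The part of these lists in the results was not tested.

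CLU (ENSG00000120885, on the minus strand of chromosome 8 from 27596917 to 27615031 in GRCh38) was the member with the largest log2 fold change, and its mRNA was 1.74-fold higher in cells given GSK-A1. The DMSO libraries held 272, 257 and 269 CPM in replicate order, against 476, 445 and 466 CPM in the treated libraries. The lowest GSK-A1 library lay far above the highest DMSO library, and the libraries of each group lay close together. The group means were 266 ± 8 and 463 ± 16 CPM (SD, n = 3). The log2 fold change was 0.80 with a standard error (SE, given after ± for every log2 value below) of 0.04. Behind these levels were between 8902 and 22205 counts per library, so counting error was small beside the difference. Only 136 of the tested genes had a larger log2 fold change in the upward direction.

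No 50-base stretch of the longest CLU transcript occurred in transcripts of another gene. The microRNA gene MIR6843 covers 2.28% of its exonic length on the same strand and had no count in any library. In a bulk measurement of this kind, more RNA per cell and more cells expressing a gene cannot be told apart.

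**Figure D1:**
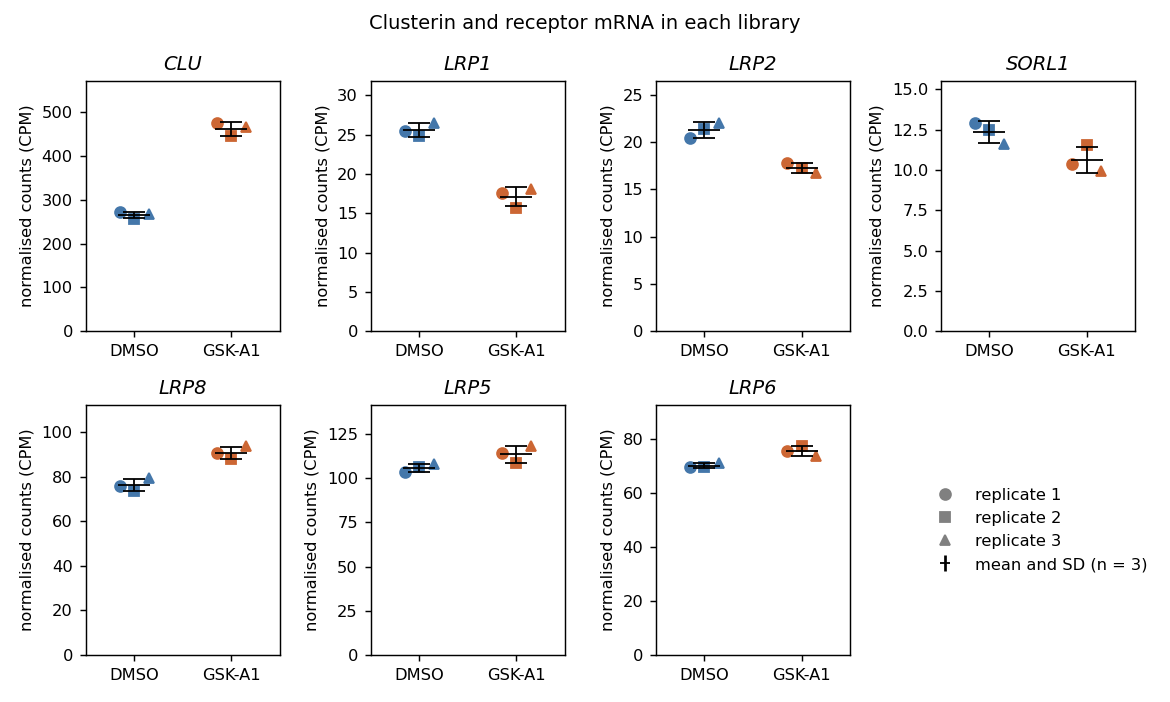
Normalised counts (CPM, linear axes from 0) of the 7 genes in each library, DMSO in blue and GSK-A1 in orange, with marker shapes for replicates and bars for the mean and SD (n = 3). The groups do not overlap in any panel, and the gap is widest for CLU, where DMSO libraries reach 272 CPM and GSK-A1 libraries start at 445 CPM.

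To ask which other transcripts followed the same course over the 6 libraries, log2 CPM of CLU was compared with that of 12815 tested genes with a symbol and a mean of at least 1 CPM. Each gene was centred on its own mean, and the distance was the root-mean-square difference on the log2 scale. NDRG1 was nearest, at a distance of 0.02, and went from 313 ± 6 to 547 ± 8 CPM (SD, n = 3), 0.81 ± 0.03 on the log2 scale. It was followed by SYNGR3 (0.05), the phosphatase gene DUSP1 (0.06) and the transcription factor genes KLF7 (0.06) and FOSL2 (0.07). These 4 had log2 fold changes of 0.78 ± 0.07, 0.83 ± 0.04, 0.91 ± 0.06 and 0.91 ± 0.05. No p-values are given, since the genes were selected for following CLU across the same groups. The likeness rests on 6 libraries in 2 groups, so any gene with a similar difference between the groups scores well by this measure.

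Among the endocytic receptors, LRP1 and LRP2 were lower with GSK-A1, as was the sorting receptor SORL1. LRP1 (ENSG00000123384, plus strand of chromosome 12 from 57128493 to 57213351) gave the largest log2 fold change, in size, of the receptors. Controls read 25.4, 24.9 and 26.5 CPM in replicate order, and the treated libraries read 17.6, 15.7 and 18.03 CPM. All treated libraries lay below all controls, and GSK-A1 replicate 2 was the lowest. The means were 25.6 ± 0.8 and 17.1 ± 1.2 CPM, a log2 fold change of -0.58 ± 0.06, or 1.49-fold lower. Without GSK-A1 replicate 2 the log2 fold change was -0.52.

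LRP2 (ENSG00000081479, minus strand of chromosome 2 from 169127109 to 169362685) encodes megalin. Its controls lay at 20.4, 21.3 and 22.1 CPM in replicate order, and the treated libraries lay at 17.8, 17.3 and 16.8 CPM. The groups were separate, by a narrower gap than for LRP1. The log2 fold change was -0.30 ± 0.06, from 21.3 ± 0.8 to 17.3 ± 0.5 CPM, or 1.23-fold lower.

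SORL1 (ENSG00000137642, plus strand of chromosome 11 from 121452203 to 121633693) had the fewest counts of the members, with 359 to 620 counts per library. In replicate order its controls had 12.9, 12.5 and 11.6 CPM, while treated cells had 10.4, 11.5 and 9.96 CPM. DMSO replicate 3 and GSK-A1 replicate 2 nearly touched. The log2 fold change was -0.22 ± 0.07, from 12.3 ± 0.7 to 10.6 ± 0.8 CPM. SORL1 passed the threshold with all libraries but did not with DESeq2 or in the fits without DMSO replicate 1, 2 or 3 or GSK-A1 replicate 1 or 3, where its log2 fold change lay between -0.26 and -0.18.

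LRP8 (ENSG00000157193, minus strand of chromosome 1 from 53242364 to 53328070) was higher with GSK-A1, the opposite direction to LRP1, LRP2 and SORL1. Control libraries gave 76.0, 73.5 and 79.2 CPM in replicate order, and libraries from treated cells gave 90.4, 88.0 and 93.5 CPM. The groups were clearly separate. The means were 76.2 ± 2.9 and 90.7 ± 2.8 CPM, a log2 fold change of 0.25 ± 0.04 or 1.19-fold. An antisense gene covers 4.55% of its exonic length, and the divergent transcript LRP8-DT had 0 to 3 counts per library.

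The Wnt coreceptor genes LRP5 and LRP6 had the smallest log2 fold changes of the members. LRP5 (ENSG00000162337, plus strand of chromosome 11 from 68312609 to 68449275) had 103.5, 106.02 and 108.06 CPM in the controls, in replicate order, and 114.3, 108.35 and 117.9 CPM after treatment. The highest DMSO library and GSK-A1 replicate 2 were almost equal. The log2 fold change was 0.10 ± 0.04. LRP6 (ENSG00000070018, minus strand of chromosome 12 from 12116025 to 12267012) stood at 69.6, 69.5 and 71.1 CPM in controls and at 75.6, 77.2 and 73.8 CPM in treated cells. Its log2 fold change was 0.11 ± 0.04. The groups were separate for LRP6, by a small gap. Neither gene was called. With upper-quartile factors their values were 0.06 and 0.07. Both were called without GSK-A1 replicate 2 (LRP5 at 0.14 and LRP6 at 0.10), LRP5 also with the trend on GC content removed (0.20), and LRP6 also with RLE factors (0.12) and without GSK-A1 replicate 3 (0.13). LRP5L, a partial copy of LRP5, had no count in any library, and 0.12% of the 50-base stretches of LRP5 occurred in other genes' transcripts.

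A gene was called at an edgeR adjusted p under 0.05 over all genes tested, and 22.9% of the tested genes were called. Of the 7 members 5 were called, 2 higher (CLU and LRP8) and 3 lower (LRP1, LRP2 and SORL1), beside 12.0% called higher and 10.9% called lower over all tested genes. In all 7 the GSK-A1 libraries lay on one side of the DMSO libraries, as they did in 40.5% of tested genes. The median log2 fold change was 0.10 over the members and -0.01 over all tested genes. Because the members were picked with this comparison in view, these shares are given for reference. CLU, LRP1, LRP2 and LRP8 were called in all 14 alternative fits tried.

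**Figure D2:**
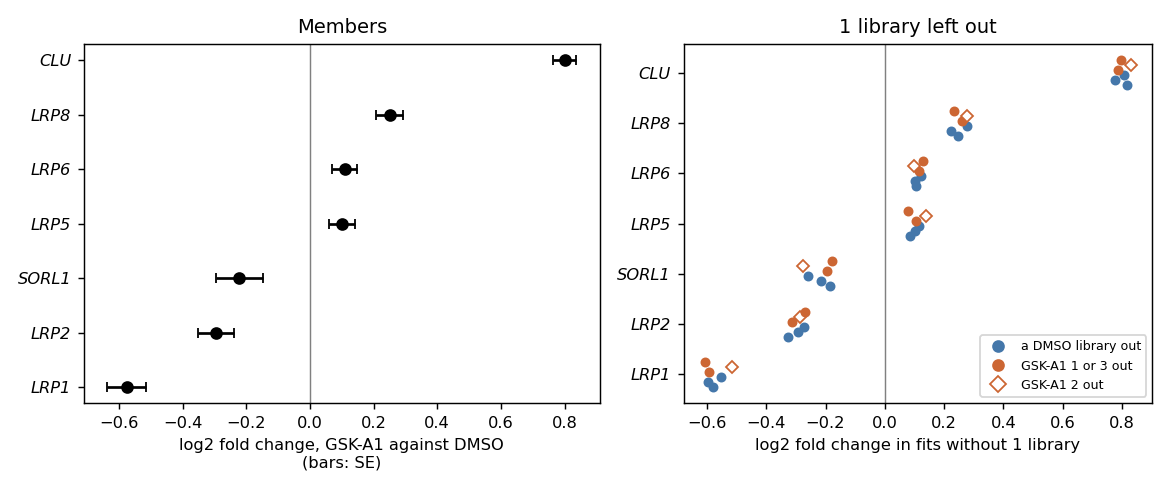
Left, log2 fold change (GSK-A1 against DMSO) of each member, with its SE. Right, the same value in each of the 6 fits without 1 library, coloured by the group of the library left out, with an open diamond for GSK-A1 replicate 2. CLU stays between 0.78 and 0.83 and LRP1 between -0.61 and -0.52, and SORL1 moves between -0.28 and -0.18.

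Upstream sequence is shown for the 4 called receptors, as LRP1, LRP2 and SORL1 were lower together while LRP8 was higher. Entries of RefSeq's promoter table on GRCh38.p14 were used for 5 of the 7 members. This count does not show that the table lacks the others. Each stretch is read 5′ to 3′ on the gene's strand and ends before the first start annotated in RefSeq or GENCODE. The intervals are chr12:57128233-57128482 (plus strand), chr2:169362686-169362784 (minus), chr11:121452064-121452202 (plus) and chr1:53328071-53328320 (minus). Capitals mark a match, on either strand, to the GC box GGGCGG or the E-box CACGTG.
LRP1: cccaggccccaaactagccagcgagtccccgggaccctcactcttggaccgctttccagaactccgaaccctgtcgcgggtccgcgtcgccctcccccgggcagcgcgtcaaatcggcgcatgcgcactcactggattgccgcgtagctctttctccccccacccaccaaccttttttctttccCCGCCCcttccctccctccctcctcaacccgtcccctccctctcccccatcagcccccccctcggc
LRP2: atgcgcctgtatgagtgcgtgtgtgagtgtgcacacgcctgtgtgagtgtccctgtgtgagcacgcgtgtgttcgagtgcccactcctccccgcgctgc
SORL1: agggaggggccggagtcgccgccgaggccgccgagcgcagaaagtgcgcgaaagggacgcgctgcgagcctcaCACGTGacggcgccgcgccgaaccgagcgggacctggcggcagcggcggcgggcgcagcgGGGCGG
LRP8: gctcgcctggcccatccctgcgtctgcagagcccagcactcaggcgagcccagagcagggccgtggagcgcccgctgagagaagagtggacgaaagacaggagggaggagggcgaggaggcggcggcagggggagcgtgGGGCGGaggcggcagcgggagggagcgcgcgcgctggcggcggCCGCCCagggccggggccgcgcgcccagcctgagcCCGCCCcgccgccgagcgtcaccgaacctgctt

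The GC box occurred 3 times in the LRP8 stretch and 1 time in that of LRP1, and 42.64% of 35116 promoters held it in the same 250 bases. The 250 bases of LRP5, which was not called and is not printed, held it 3 times too. SORL1 had 1 GC box in its 139 bases, where 23.81% of promoters held it. The E-box occurred only in the SORL1 stretch of the 4, 1 time, and 2.74% of promoters held it in that window. The 99 bases of LRP2 matched neither, and 17.14% of promoters held the GC box there. An AP-1 site (TGANTCA), a cyclic AMP response element (TGACGTCA), an EGR site (GCGNGGGCG, which can overlap the GC box) and a sterol response core (TCACCCCAC) were also searched on both strands and had no match in the 4 stretches. Over 250 bases, the length for LRP1 and LRP8, these occurred in 6.57%, 1.65%, 8.41% and 0.36% of promoters. Over the 139 bases used for SORL1 the shares were 3.49%, 0.38%, 3.41% and 0.21%. Over the 99 bases used for LRP2 they were 2.42%, 0.22%, 2.21% and 0.13%. The GC content was 67.6% for LRP1, 62.6% for LRP2, 79.1% for SORL1 and 77.2% for LRP8. These are matches of letters and say nothing of binding.

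Levels of different genes were compared as CPM per kilobase of the longest annotated transcript. On that scale CLU was far above the receptors, at 86.3 ± 2.5 in controls and 150.2 ± 5.1 in treated cells (SD, n = 3). LRP5 followed at 20.5 ± 0.4 and 22.0 ± 0.9, then LRP8 at 9.97 ± 0.37 and 11.9 ± 0.4 and LRP6 at 6.99 ± 0.09 and 7.54 ± 0.17. LRP1, LRP2 and SORL1 were the lowest. LRP1 was at 1.72 ± 0.06 with DMSO and 1.149 ± 0.08 with GSK-A1, LRP2 at 1.35 ± 0.05 and 1.09 ± 0.03, and SORL1 at 1.13 ± 0.06 and 0.97 ± 0.08. With DMSO each gene lay above the next in every library. With GSK-A1 the ranges of LRP1 (1.05 to 1.21) and LRP2 (1.06 to 1.13) overlapped, and the highest SORL1 library (1.06) lay within the range of LRP1 and just below that of LRP2. The order depended on the length used. By coding length LRP8 lay above LRP5. In controls SORL1 (1.86) then lay above LRP2 (1.52) and close to LRP1 (1.88).

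**Figure D3:**
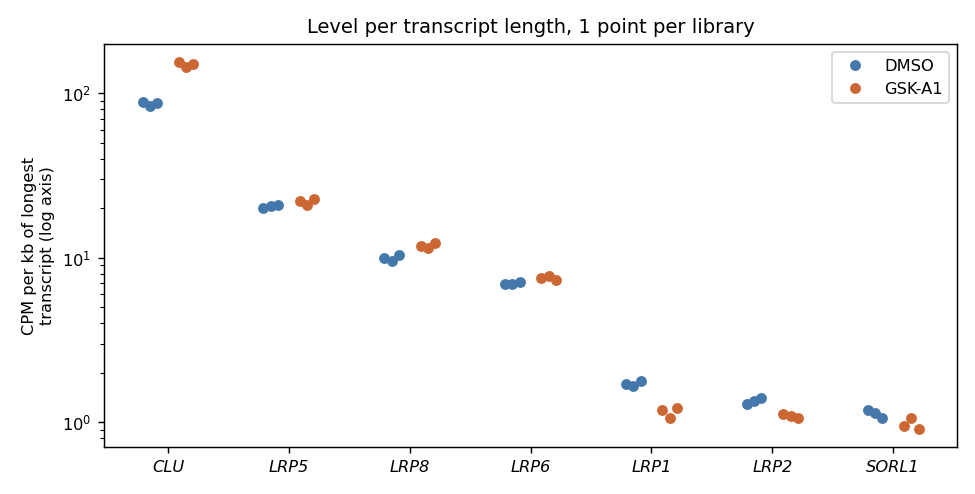
Level of each gene as CPM per kilobase of its longest transcript (log axis), with 1 point per library, DMSO in blue and GSK-A1 in orange. The genes run from CLU at about 86.3 with DMSO to SORL1 at 1.13, and LRP1 and LRP2 lie at nearly the same height in the GSK-A1 libraries.

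Summed per kilobase, the 6 receptors stood at 41.7 ± 0.8 in controls and 44.6 ± 1.1 in treated cells (SD, n = 3). CLU per kilobase was 2.07 ± 0.06 times that sum with DMSO and 3.37 ± 0.08 times with GSK-A1. Within the sum, LRP1 made up 4.12% ± 0.07 and then 2.57% ± 0.13, LRP2 3.23% ± 0.07 and then 2.45% ± 0.11, and LRP8 23.9% ± 0.5 and then 26.6% ± 0.2. The ratio of LRP8 to LRP1 per kilobase was 5.82, 5.76 and 5.82 in the controls, in replicate order, and 9.99, 10.9 and 10.1 in the treated libraries. The ratio of LRP5 to LRP6 was 2.94 ± 0.04 and 2.92 ± 0.19. These values depend on the length used. Per kilobase of coding length, an alternative chosen after these values were seen, LRP5 to LRP6 was 1.51 ± 0.02 and 1.502 ± 0.10, LRP8 to LRP1 was 14.0 ± 0.1 and 25.04 ± 1.2, and CLU was 2.90 ± 0.08 and 4.61 ± 0.11 times the receptor sum. LRP8 then made up 38.8% ± 0.7 and 42.1% ± 0.4 of the sum, and LRP1 2.76% ± 0.03 and 1.68% ± 0.09. A change of length multiplies each gene-to-gene ratio by the same factor in every library, so agreement between the lengths was fixed in advance. The ratio of LRP8 to LRP1 was higher in each treated library than in every control. This had to follow, since LRP8 was higher and LRP1 lower in every treated library, and it adds no separate result. The difference in the LRP5 to LRP6 ratio lay within the spread of the GSK-A1 libraries.

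The members also differed in transcript length, a property their choice did not use. The longest transcripts of LRP2, LRP1, SORL1 and LRP6 span 15808, 14897, 10904 and 10020 bases, against 7648 for LRP8, 5159 for LRP5 and 3080 for CLU. The members that were lower were the 3 with the longest transcripts. No transcript length was at hand for 660 tested genes, which are left out here. Of the tested genes with a known length, 628 had a longest transcript of at least 10000 bases, LRP1, LRP2, SORL1 and LRP6 among them. Their median log2 fold change was 0.02, with 8.92% called lower and 19.4% called higher. Among the 15466 shorter ones the median was -0.01, with 11.1% called lower and 12.1% called higher. This threshold was set after the members' values had been seen.

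Other receptors of the family and further partners were then read, and their counts and median log2 fold changes stand beside the 22.9% called and the median of -0.01 over all tested genes. The partner lists were chosen with earlier results of these data known. Adjusted p-values of their genes are therefore given as description. Of 18 listed LDL-receptor and VPS10-domain receptors, 13 were tested and 6 were called, 5 higher and 1 lower. VLDLR, the other reelin receptor, rose from 24.9 ± 1.7 to 28.1 ± 0.3 CPM (SD, n = 3; 0.17 ± 0.06 on the log2 scale; edgeR adjusted p = 0.0344). LRP12 rose by 0.23 ± 0.05 on the log2 scale (edgeR adjusted p = 0.00396), and LRP4, a receptor for agrin, by 0.18 ± 0.05 on the log2 scale (edgeR adjusted p = 0.0138). The sortilin gene SORT1, a VPS10-domain relative of SORL1, rose from 129.6 ± 0.9 to 141.4 ± 2.6 CPM (log2 difference 0.13 ± 0.04; edgeR adjusted p = 0.0187). LRP3 fell from 102.6 ± 2.6 to 88.3 ± 4.8 CPM (log2 difference -0.22 ± 0.04; edgeR adjusted p = 0.00234), with 12.29% of its 50-base stretches shared with an overlapping gene. The median log2 fold change over the 13 was 0.12. It was 0.05 without DMSO replicate 2 or GSK-A1 replicate 3 and 0.08 without DMSO replicate 3. Only 2 of these genes were called when DMSO replicate 1 or 3 or GSK-A1 replicate 1 was left out, where 5, 7 and 7 genes had an unadjusted p under 0.05. The call of LRP4 was lost in each of these 3 fits. That of VLDLR was lost in the same fits, without GSK-A1 replicate 3 and under upper-quartile factors. That of SORT1 was lost in the same fits, without DMSO replicate 2 and under upper-quartile factors. The calls of LRP3 and LRP12 were kept in all 14 alternatives, with the value of LRP3 at -0.12 once the GC trend was removed.

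Of the ligands that these receptors take up or respond to, 16 of 22 were tested and 7 were called, 5 higher and 2 lower. TFPI, an inhibitor of tissue factor that is cleared through LRP1, rose from 16.3 ± 0.6 to 28.6 ± 2.5 CPM (SD, n = 3; 0.80 ± 0.06 on the log2 scale; edgeR adjusted p = 4.43e-07). SERPINE2, a protease inhibitor whose complexes are taken up by LRP1, rose by 0.35 ± 0.05 on the log2 scale (edgeR adjusted p = 1.03e-04) and CCN2, a matricellular protein, by 0.48 ± 0.09 on the log2 scale (edgeR adjusted p = 8.82e-04). MDK, the growth factor midkine, fell from 98.7 ± 6.6 to 70.9 ± 1.1 CPM (log2 difference -0.48 ± 0.05; edgeR adjusted p = 4.05e-06). APOE, an apolipoprotein that many of these receptors bind, stood at only 2.14 ± 0.12 CPM in controls and 2.40 ± 0.68 CPM in treated cells, a difference of 0.16 ± 0.17 on the log2 scale (edgeR adjusted p = 0.520). For APOE this was -0.04 when GSK-A1 replicate 3 was dropped, 0.32 when replicate 2 of that group was dropped, and 0.26 after GC correction. The median over the 16 was 0.12. Dropping DMSO replicate 1 gave 0.06, dropping GSK-A1 replicate 2 gave 0.04, and dropping GSK-A1 replicate 3 gave -0.02.

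Beside clusterin, cells carry other proteins that restrain complement at the membrane. In the list of extracellular chaperones and complement control, 5 of 10 genes were tested and 3 were called, all higher. They were CD55, CD59 and CD46, which encode membrane inhibitors of complement. CD55 stood at 67.9, 69.4 and 69.5 CPM in controls and at 105.9, 120.07 and 106.97 CPM in treated cells. Its difference was 0.69 ± 0.05 on the log2 scale, with an edgeR adjusted p of 6.09e-08. CD59 rose by 0.20 ± 0.05 on the log2 scale (edgeR adjusted p = 0.00536), with 7.68% of its stretches shared with an overlapping gene, and CD46 by 0.16 ± 0.04 (0.00773). The CD46 call was lost without DMSO replicate 1, and its value was 0.10 with the GC trend removed. Over the 5 the median was 0.16, and 0.07 without GSK-A1 replicate 3.

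Receptors of this family need dedicated chaperones and adaptors. All 18 listed were tested and 3 were called, 1 higher and 2 lower. LRPAP1, the chaperone that keeps ligands off new receptors, stood at 98.1 ± 1.1 and 97.7 ± 2.9 CPM (-0.01 ± 0.04 on the log2 scale; edgeR adjusted p = 0.927). MESD, the chaperone of LRP5 and LRP6, stood at 53.9 ± 0.6 and 55.7 ± 2.4 CPM (log2 difference 0.05 ± 0.04; edgeR adjusted p = 0.487). The values of these 2 uncalled chaperones were near 0 and lay between -0.05 and 0.08 over the alternatives. Without GSK-A1 replicate 2 the value was 0.021 for LRPAP1 and 0.016 for MESD. SNX17, which returns LRP1 and other receptors from endosomes to the surface, fell from 104.5 ± 1.6 to 91.8 ± 2.8 CPM (log2 difference -0.19 ± 0.04; edgeR adjusted p = 0.00287). Removing the GC trend left it called, at -0.12. The scaffold genes MAPK8IP2 and MAPK8IP1 moved in opposite directions, by -0.29 ± 0.05 on the log2 scale (edgeR adjusted p = 4.17e-04) and 0.21 ± 0.06 on the log2 scale (edgeR adjusted p = 0.0143). MAPK8IP1 shares 13.29% of its stretches with a pseudogene, and its call was lost without DMSO replicate 1 or 3 and without GSK-A1 replicate 3. The median over the 18 was -0.03, a sign that turned with the GC trend removed (0.03) and without GSK-A1 replicate 2 (0.01), and it was -0.07 with upper-quartile factors.

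Of 22 genes for sorting in endosomes and the Golgi, which carry SORL1 and its relatives, 2 were called, both higher. The retromer subunit VPS35 rose by 0.13 ± 0.04 on the log2 scale (edgeR adjusted p = 0.0255) and the sorting nexin SNX5 by 0.11 ± 0.04 (0.0456). Over the 22 the median was 0.05, but 0.03 without GSK-A1 replicate 3 and 0.0065 with upper-quartile factors. With edgeR the 2 calls became 0 without DMSO replicate 1, 2 or 3 or GSK-A1 replicate 1, where 2, 4, 3 and 4 genes had an unadjusted p under 0.05. They became 6 without GSK-A1 replicate 2, and DESeq2 over all libraries called 2. The calls of VPS35 and SNX5 were also lost under upper-quartile factors (SNX5 at 0.07), and that of SNX5 without GSK-A1 replicate 3, with no filter on low counts and with the GC trend removed.

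Of 12 genes for proteases, their subunits and a ubiquitin ligase that cut or degrade these receptors, 3 were called, all higher. They were the sheddase genes ADAM17 (0.20 ± 0.05 on the log2 scale; edgeR adjusted p = 0.0116) and ADAM10 (log2 difference 0.16 ± 0.05; edgeR adjusted p = 0.0181) and FURIN, the convertase that cleaves receptor precursors (log2 difference 0.15 ± 0.04; edgeR adjusted p = 0.0168). FURIN went from 159 ± 4 to 177 ± 10 CPM. IAH1 on the opposite strand covers 12.31% of the exonic length of ADAM17. Only 1 of the 3 calls was left when DMSO replicate 1 or 3 was dropped, and 0 when DMSO replicate 2 was dropped, where 5 genes had an unadjusted p under 0.05 in edgeR, while DESeq2 over all libraries called 3. The median over the 12 was 0.03, but -0.01 with upper-quartile factors, -0.00105 without DMSO replicate 1, 0.07 and 0.02 when GSK-A1 replicate 1 or 2 was dropped, and between 0.05 and 0.06 without DMSO replicate 3, when GSK-A1 replicate 3 was dropped, or after GC correction. The call of ADAM17 was lost without DMSO replicate 2 or 3, that of ADAM10 without DMSO replicate 1, 2 or 3, and that of FURIN without DMSO replicate 1 or 2 or GSK-A1 replicate 1 or 3. Upper-quartile factors also ended those of ADAM10 and FURIN, and removing the GC trend gave 0.11 for ADAM10 and 0.24 for FURIN, both still called.

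Among Wnt partners of LRP5 and LRP6, 32 of 40 were tested and 6 were called, 3 higher and 3 lower. The Frizzled receptor gene FZD7 rose from 32.9 ± 1.2 to 39.5 ± 1.1 CPM (0.26 ± 0.05 on the log2 scale; edgeR adjusted p = 0.00113), while FZD4 changed by -0.21 ± 0.06 (edgeR adjusted p = 0.0125). CDK14, a kinase that phosphorylates LRP6, rose by 0.21 ± 0.05 on the log2 scale (edgeR adjusted p = 0.00619). TMEM198, which promotes LRP6 phosphorylation, fell from 5.02 ± 0.16 to 3.60 ± 0.28 CPM (log2 difference -0.47 ± 0.10; edgeR adjusted p = 0.00300). PRSS23 on the opposite strand covers 18.95% of the exonic length of FZD4, whose call was lost without DMSO replicate 2 or 3 or GSK-A1 replicate 1. The 6 calls became 3 without DMSO replicate 2 or 3. The median over the 32 was 0.02, but -0.02 with upper-quartile factors. It was 0.03 without DMSO replicate 2 or 3, 0.0435 and 0.045 when GSK-A1 replicate 1 or 2 was dropped, and 0.0463 after GC correction.

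In the reelin pathway below LRP8 and VLDLR, 4 of 11 tested genes were called, 3 higher and 1 lower. RELN, counted with the ligands, was at 0.52 ± 0.06 CPM in controls and 0.72 ± 0.34 CPM in treated cells, and DAB1 at 0.66 ± 0.13 and 0.90 ± 0.07 CPM. Neither was called, and both are named outside the rule, after their values were seen. The kinase genes FYN and YES1, which act on DAB1, rose by 0.13 ± 0.04 on the log2 scale (edgeR adjusted p = 0.0151) and 0.20 ± 0.05 on the log2 scale (edgeR adjusted p = 0.0148), and the adaptor CRK by 0.16 ± 0.04 (0.00637). CDK5, a kinase of neuronal migration, fell from 17.3 ± 1.3 to 13.3 ± 0.3 CPM (log2 difference -0.37 ± 0.07; edgeR adjusted p = 8.88e-04), with 11.27% of its exonic length covered by SLC4A2 on the opposite strand. Leaving out DMSO replicate 1 gave 2 calls, and leaving out DMSO replicate 2 or 3 gave 1. The call of YES1 was lost without DMSO replicate 1, 2 or 3, that of CRK without DMSO replicate 2 or 3, and that of FYN without DMSO replicate 1, 2 or 3 or GSK-A1 replicate 1 and under upper-quartile factors. The value of YES1 was 0.13 without GSK-A1 replicate 2. Over the 11 the median was 0.07, but 0.03 with upper-quartile factors and 0.12 with the GC trend removed.

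**Figure D4:**
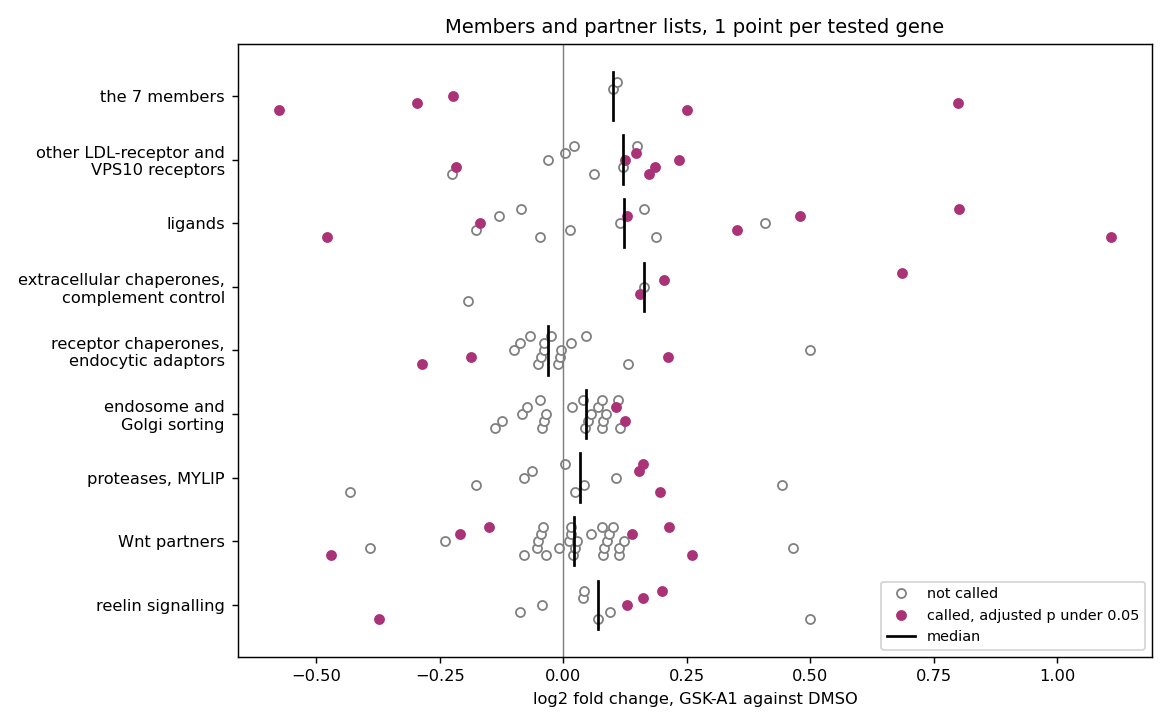
Log2 fold change (GSK-A1 against DMSO) of each tested gene in the members and the 8 partner lists, with filled points for called genes, open points for others and a black line at the median. The members spread from -0.58 to 0.80, and genes of the sorting list lie between -0.14 and 0.13.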

How the data were processed

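Total RNA from HEK293 cells went into 6 libraries made with a stranded TruSeq kit, per the labels' protocols. The authors deposited unnormalised read counts, with 1 row for each gene and 1 column for each library. The submitters' processing notes list cutadapt 5.1, STAR 2.7.11b, featureCounts in Subread 2.1.1, DESeq2 1.38.0 and build GRCh38.p13, without roles. Annotation release and strand setting are not given in the sources used here. Without the strand setting, reads of a gene and an antisense partner cannot be told apart.

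Groups came from the treatment label. edgeR 4.0.16 in R 4.3.3 tested GSK-A1 against DMSO over all 16754 genes that passed filterByExpr (smallest count 10, smallest total 15), with TMM factors, robust dispersions and the quasi-likelihood F test. P-values were adjusted by Benjamini and Hochberg over all tested genes, and adjusted p under 0.05 was the call. SE is the log2 coefficient over the square root of F. CPM uses TMM-adjusted totals and is given as mean ± SD. Code was tested on simulated counts. Counts carry no molecular identifiers, so counting error understates total error.

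GENCODE 29 gave positions, lengths, GC content (known for 96.1% of tested genes), overlaps and shared 50-base stretches. Promoters came from RefSeq. The members, the 8 partner lists and the marker lists were chosen with earlier results of these data known. Named list genes were up to 4 called genes with the smallest p-values per list, plus VLDLR, SORT1, APOE, LRPAP1 and MESD, and the 5 genes nearest CLU, and 1 further gene of the rule is not reported here. Alternatives were other factors (RLE, upper quartile), other filters, DESeq2 1.42.0, a block on replicate number, voom in limma 3.58.1, removal of the trend on GC content (loess, span 0.3), a threshold of 0.01, coding length, and leaving out each library.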

Additional observations from a re-analysis of the deposited data

How the results depend on the processing

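The number of genes called was 3835, of which 52.3% were higher. It was 1871 at an adjusted p under 0.01, 4027 under upper-quartile factors (33.3% higher), 3012 with DESeq2 (62.5% higher), 4367 with the GC trend removed (62.2% higher), and 2163 to 4890 without 1 library. Same-numbered DMSO and GSK-A1 libraries deviated together with correlations of 0.0109, 0.019 and 0.0323, and differently numbered ones with -0.0331 to 0.0117. Not every library correlated best with its own number. Values this small do not settle whether the numbers pair the samples. The replicate block called 4127 genes. CLU, LRP1, LRP2 and LRP8 kept their direction and call in all 14 alternative fits. SORL1 gave -0.207 with DESeq2 and -0.278 to -0.179 without 1 library, LRP5 0.195 with the GC trend removed and 0.0776 to 0.138 without 1 library, and LRP6 0.116 with RLE factors and 0.0992 to 0.129 without 1 library. Of the 33 called genes that the naming rule chose beside the members, 19 were called in every alternative and 14 were not in at least 1. Many of the 33 were picked for small p-values or for following CLU, so these counts do not describe called genes in general. Directions reversed for APOE (-0.0368 without GSK-A1 replicate 3, -0.0368 to 0.321 without 1 library) and LRPAP1 (0.00238 with no filter, 0.00482 with DESeq2, 0.0462 with the GC trend removed, 0.0207 without GSK-A1 replicate 2, -0.019 to 0.0207 without 1 library), neither of them called. The count of calls was, for other receptors 2 to 7 without 1 library, and for sorting 1 with no filter, 4 after GC correction and 0 to 6 without 1 library. The count of calls was, for proteases 0 to 4 without 1 library, and for Wnt partners 3 to 9 without 1 library. The count of calls was, for reelin pathway 1 to 5 without 1 library. The median log2 fold change was, for other receptors 0.0817 under upper-quartile factors and 0.0504 to 0.129 without 1 library, and for ligands -0.0204 to 0.169 without 1 library. The median log2 fold change was, for complement control 0.21 after GC correction and 0.0725 to 0.19 without 1 library, and for chaperones and adaptors -0.0722 under upper-quartile factors, 0.0258 after GC correction and -0.0299 to 0.00879 without 1 library. The median log2 fold change was, for sorting 0.00649 under upper-quartile factors and 0.0276 to 0.0505 without 1 library, and for proteases -0.00713 under upper-quartile factors and -0.00105 to 0.072 without 1 library. The median log2 fold change was, for Wnt partners -0.0191 under upper-quartile factors, 0.0305 with no filter, 0.0307 with DESeq2, 0.0463 after GC correction and 0.0173 to 0.045 without 1 library, and for reelin pathway 0.0293 under upper-quartile factors, 0.122 after GC correction and 0.0469 to 0.103 without 1 library. Per kilobase of coding length the DMSO levels were CLU 197, LRP8 26.4, LRP5 21.9, LRP6 14.5, LRP1 1.88, SORL1 1.86 and LRP2 1.52 CPM. Fits without 1 library leave fewer samples, and the other causes were not tested. SORL1 had the fewest counts of the members, at 359 to 620 per library. It also had the largest SD relative to its mean, 5.53% with DMSO and 7.70% with GSK-A1. Which of these bears on its call was not tested.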

Other observations

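Some relatives and ligands outside the rule for named genes were read after their values were seen. Their adjusted p-values are therefore given as description. LRP1B, the close homologue of LRP1, went from 7.45 ± 0.34 to 6.40 ± 0.40 CPM (SD, n = 3; -0.23 ± 0.08 on the log2 scale, SE; edgeR adjusted p = 0.0601) and was not called, although its groups did not overlap. It was called under upper-quartile factors, with a mean of at least 1 CPM, with the GC trend removed and without GSK-A1 replicate 2 (-0.26). LRP10 rose from 62.6 ± 1.5 to 69.2 ± 3.5 CPM (log2 difference 0.15 ± 0.05; edgeR adjusted p = 0.0277), a call lost without DMSO replicate 1, 2 or 3, GSK-A1 replicate 1 or 3, and under upper-quartile factors.

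APP, the amyloid precursor protein that SORL1 sorts, rose from 714 ± 4 to 781 ± 16 CPM (0.13 ± 0.03 on the log2 scale; edgeR adjusted p = 0.00673) and was called in all 14 alternative fits. AGRN, the ligand of LRP4, fell from 221 ± 7 to 196 ± 16 CPM (log2 difference -0.17 ± 0.05; edgeR adjusted p = 0.0260), a call lost without DMSO replicate 2 or 3 or GSK-A1 replicate 1, or once GC content was corrected for (-0.07). Its value was -0.11 without GSK-A1 replicate 2. PLAU, the urokinase gene, rose from 0.34 ± 0.07 to 0.73 ± 0.10 CPM (log2 difference 1.11 ± 0.26; edgeR adjusted p = 0.00589). Its mean was below 1 CPM in both groups, so its value rests on few counts. PLAU was called in all 12 alternative fits that gave it an adjusted p. C10orf55 on the opposite strand covers 31.05% of the exonic length of PLAU.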
